A study of Saccharomyces cerevisiae with 18 samples.

Results

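The genes described here encode the proteins of the yeast mitochondrial ribosome, and they were chosen by name alone. A probe set, the group of short probes that reads 1 transcript on the array, was taken as a member when the platform annotation gave it a symbol of the form MRPL, MRPS or RSM with a number, or MRP followed by digits only. This rule found 66 probe sets of 66 genes among the 5763 probe sets tested, and it used no measured value. The names placed 37 members in the large subunit and 28 in the small subunit. The remaining member, MRP8, carries the family name, but the RefSeq annotation gives it no ribosomal family, and it is described on its own. Cultures of the diploid Saccharomyces cerevisiae strain BY4743 were exposed for 20 min to 2.5 mg/mL of the dried aqueous extract of 1 of 6 E. arvense (horsetail) sources, or received no extract. The tested conditions were USA2, USA6, USA7, EUROPE11 and INDIA13 with 2 arrays each and CHINA8 with 4 arrays, and the control had 4 arrays. All cultures shared the genotype his3, leu2 and ura3 deleted on both copies, with MET15 and LYS2 each deleted on 1 of the copies, and all grew to log phase in minimal medium with uracil, so each condition is a single strain at a single time and dose. The methods call the cultures biological replicates, and each value is an average over all cells of a culture.

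Yeast mitochondria carry their own small genome, which encodes a few membrane subunits of the respiratory chain and of ATP synthase, and a dedicated ribosome translates them. Nearly all proteins of this ribosome are encoded in the nucleus, made in the cytoplasm and imported, so their mRNAs are read together with all other polyadenylated nuclear transcripts. The large subunit joins amino acids and holds the exit tunnel of the new chain, and the small subunit binds the mRNA and reads the codons. Some of the proteins have relatives in every ribosome, some only in bacteria, and others are found in mitochondria alone.

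The values were log2 signals between 2.73 and 14.49, with array medians between 9.55 and 9.64. The member means over all arrays lay between 8.20 (RSM22) and 12.43 (MRP8), with a median of 10.47, against a median of 9.59 over all tested probe sets, so the members lay in the middle and upper part of the signal range. Of the marker genes deleted in the strain, LEU2 and URA3 had median log2 signals of 3.56 and 3.23, with 2.46% and 1.08% of the probe sets below them, while HIS3 had 11.55, with 82.1% below it. The his3 allele of this strain background removes only an inner piece of the gene, and the place of the HIS3 probes relative to it was not examined, so its signal checks nothing about the strain. The array titles carry 1 of 2 dates. Control replicates 1 and 2 and CHINA8 replicates 1 and 2 had the earlier date and all other arrays the later one. The control probe sets for the 3′ and the 5′ end of 18S rRNA differed by -1.54 to -1.12 on the 4 later-date arrays of control and CHINA8, against -2.85 to -2.08 on their 4 earlier-date arrays and -2.83 to -2.34 on the 10 arrays of the other extracts. The part of this difference in the results below was not tested. The counts of members called against control, and some results for single genes, are given with and without those 4 arrays. The other results are given only with them, among them the subunit differences, the counts without overlap and the family medians. The exception is CHINA8 on the earlier date, which does not use them. Without those 4 arrays, the only controls left were of the earlier date, while all extracts except CHINA8 had later-date arrays alone. For those extracts the date and the extract cannot then be told apart. The difference between the 3′ and the 5′ end for ACT1 mRNA lay between 0.26 and 0.42 on all arrays. RMA equalizes the distribution of the probe signals between arrays before they are summarized per probe set, so a shift common to most transcripts would not be seen.

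The question put to the members was whether each extract changed them relative to control, and by how much. Transcripts of the mitochondrial ribosome were mostly lower in extract-treated cultures, most widely with CHINA8, and the model over all arrays called few higher. With CHINA8, 48 of the 66 members fell and 0 rose, whereas 19.9% of all tested probe sets fell and 19.7% rose in that contrast (limma, Benjamini-Hochberg adjusted p under 0.05 over all probe sets, as in all single-extract contrasts). EUROPE11 lowered 22 members and raised 0, against 9.89% lower and 12.3% higher among all probe sets. USA7 lowered 20 and raised 3, against 18.9% and 20.4%. USA2 lowered 10 and raised 0, against 8.36% and 10.5%. INDIA13 lowered 9, which is 13.6% of the members and close to the 14.4% of all probe sets, and raised 2, against 14.1%. USA6 lowered 3 and raised 0, against 2.88% and 4.08%. In all, 11 members were called with no extract, namely MRPL1, MRPL4, MRPL11, MRPL13, MRPL16, MRPL28, MRP1, MRP10, MRP13, RSM23 and RSM26, which is 16.7% of the members, against 34.8% of all probe sets. The 6 contrasts share their control arrays, and CHINA8 had more arrays than the other extracts, so the counts are not a ranking of the extracts by effect.

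**Figure D1:**
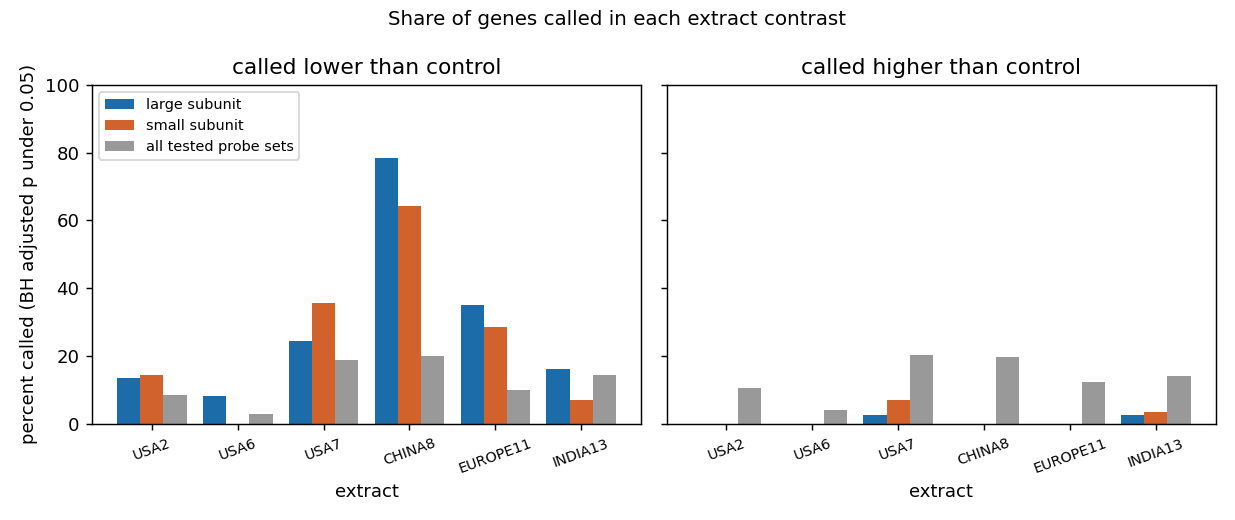
Percent of genes called lower (left) and higher (right) than control in each extract contrast at an adjusted p under 0.05, for the large subunit (37 genes), the small subunit (28 genes) and all 5763 tested probe sets. With CHINA8, 78.4% of the large and 64.3% of the small subunit genes were called lower, against 19.9% of all probe sets, and no subunit exceeded 7.14% called higher with any extract.

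The counts of the extracts with 2 arrays changed strongly when 1 array was left out, while that of CHINA8, with 4 arrays, did not. The part of the group size in this cannot be told apart from that of the extract. On the earlier date alone, with 2 arrays against 2, the CHINA8 count was 12. Leaving out any array moved the CHINA8 count between 43 and 49. The count for USA2 was 0 without either of its arrays, 18 without control replicate 1 and 6 without control replicate 4. The count for USA6 was 0 without either of its arrays and 7 without control replicate 1. The count for USA7, 23 in both directions together, was 13 without its replicate 1, 7 without its replicate 2 and 15 without control replicate 3. The count for EUROPE11 was 3 without its replicate 1 and 4 without its replicate 2. The count for INDIA13, 11 in both directions together, was 3 without its replicate 1, 5 without its replicate 2, 19 without control replicate 1 and 6 without control replicate 3. With 1 array left in a group, its spread was taken from the other groups. Among the later-date arrays alone, with 2 arrays in every condition, 36 members were lower with CHINA8 (14.3% of all probe sets), 24 with EUROPE11 (16.4%), 22 with USA7 (23.8%), 17 with USA2 (16.7%), 16 with INDIA13 (20.9%) and 13 with USA6 (7.77%). More members were higher in this setting than over all arrays, 7 with INDIA13 (21.2% of all probe sets), 6 with USA7 (25%), 5 with EUROPE11 (20.2%) and 4 with USA2 (18.2%), and 0 with USA6 (9.23%) or CHINA8 (15%). The control and CHINA8 arrays on the later date were the 4 whose 18S values stood apart from the rest. With the title date as a block, 6 were higher with INDIA13, 6 with USA7, 3 with EUROPE11 and 4 with USA2. Without the 4 arrays whose 18S values stood apart, the counts called in either direction were 44 with CHINA8, 20 with USA7, 17 with EUROPE11, 7 with USA2, 5 with USA6 and 4 with INDIA13. In this setting the controls were of the earlier date and all extracts but CHINA8 of the later one. For those extracts date and extract cannot be told apart. The 44 with CHINA8 came from the same CHINA8 and control arrays as the 12 on the earlier date. Only the arrays that gave the spread differed. For the date block and for left-out arrays the share of all probe sets was not counted, so these counts cannot be set against it.

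The median of the members lay below control with every extract. This median log2 difference of the 66 members was -0.43 with CHINA8, -0.22 with USA6, -0.21 with EUROPE11, -0.18 with USA7, -0.13 with USA2 and -0.06 with INDIA13, while the medians of all probe sets lay between -0.00 and 0.03. With CHINA8, 64 of the 66 members lay below control, and with INDIA13 40 did, against 49.3% and 47.3% of all probe sets. On the later-date arrays alone 57 did with CHINA8 and 36 with INDIA13, against 50.2% and 47.4% of all probe sets. The mean deviation of the members from the control mean was -0.42, -0.35, -0.33 and -0.36 on the CHINA8 arrays, against -0.05, 0.06, 0.08 and -0.09 on the control arrays. The other extract arrays lay between -0.26 (USA7 replicate 2) and -0.03 (INDIA13 replicate 1). All 4 CHINA8 arrays lay below every other array, and only INDIA13 replicate 1 lay within the range of the control arrays.

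The medians of the large and the small subunit differed by at most 0.08 with every extract, and this difference was not tested. The widest gap was with USA7, with -0.21 for the large and -0.13 for the small subunit. The median of the large subunit minus that of the small subunit was -0.02 with USA2, -0.01 with USA6, -0.08 with USA7, -0.05 with CHINA8, -0.03 with EUROPE11 and -0.01 with INDIA13. On single arrays, the mean of the large minus that of the small subunit lay between -0.05 and 0.01 on the 14 extract arrays and between -0.05 and 0.04 on the 4 control arrays, so the ranges overlapped. Leaving out any array kept the difference of medians between -0.09 (USA7 without control replicate 1) and 0.03 (USA6 without its replicate 2). On the later-date arrays alone the sign turned for CHINA8 (0.05), USA6 (0.01) and EUROPE11 (0.02). With the title date as a block the difference was -0.09 with INDIA13 and -0.08 with USA7. With CHINA8, 29 of 37 large subunit members fell, with a subunit median of -0.44, and 18 of 28 small subunit members fell, with a subunit median of -0.38. With EUROPE11 the counts were 13 large and 8 small, with USA7 9 and 10, with USA2 5 and 4, with INDIA13 6 and 2, and with USA6 3 and 0. MRP8 makes up the difference from the totals with USA2, USA7, CHINA8, EUROPE11 and INDIA13.

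**Figure D2:**
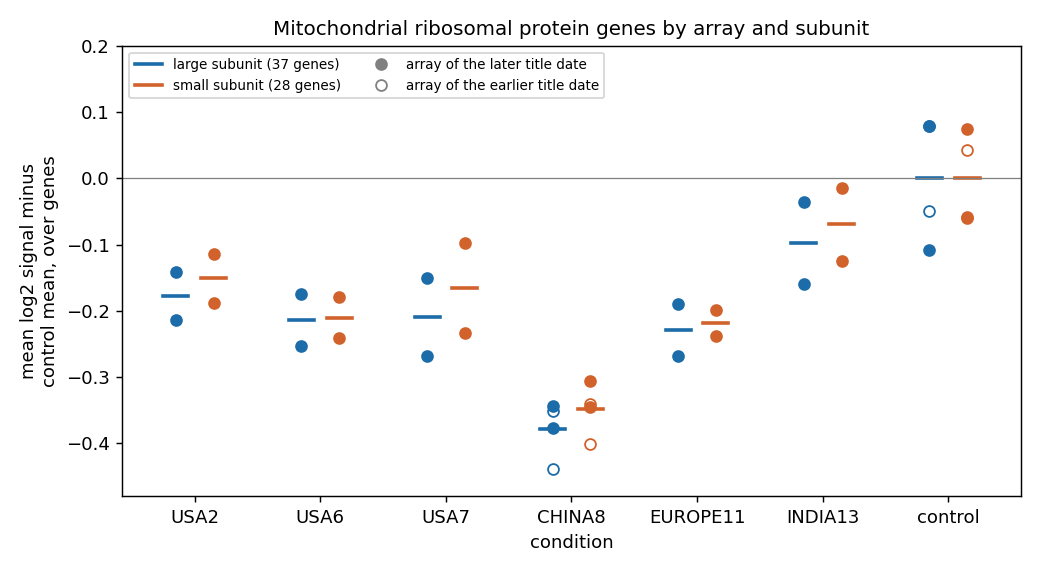
Mean log2 signal minus the control mean over the large subunit genes (blue) and the small subunit genes (orange), per array (points) with the mean of each condition (lines). Filled points are arrays of the later title date and open points of the earlier one, and the CHINA8 arrays lay between -0.44 and -0.31, below all others in both subunits.

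CHINA8 was measured on both title dates with controls of the same date, and the arrays of the dates do not overlap. The median of the members was -0.40 on the earlier date and -0.39 on the later one. Of the 66 members, 56 (84.8%) lay below control on both dates, 31 of the large and 24 of the small subunit, against 36.9% of all probe sets. Within a date the test was unpaired, with 2 arrays on each side. On the earlier date 12 members fell and 0 rose (9.35% and 9.75% of all probe sets). On the later date 36 fell and 0 rose (14.3% and 15%). No member differed between the dates by the interaction term of limma after Benjamini-Hochberg adjustment, as was the case for all probe sets (0%). At an unadjusted p under 0.05, 2 members did, MRPL8 and MRPL16, against 10.8% of all probe sets. As a description over the 66 members, the differences on the dates had a Pearson r of 0.66 and a Spearman rho of 0.61, and over all 5763 probe sets 0.78 and 0.71. The points of such a correlation share the arrays and are not independent.

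**Figure D3:**
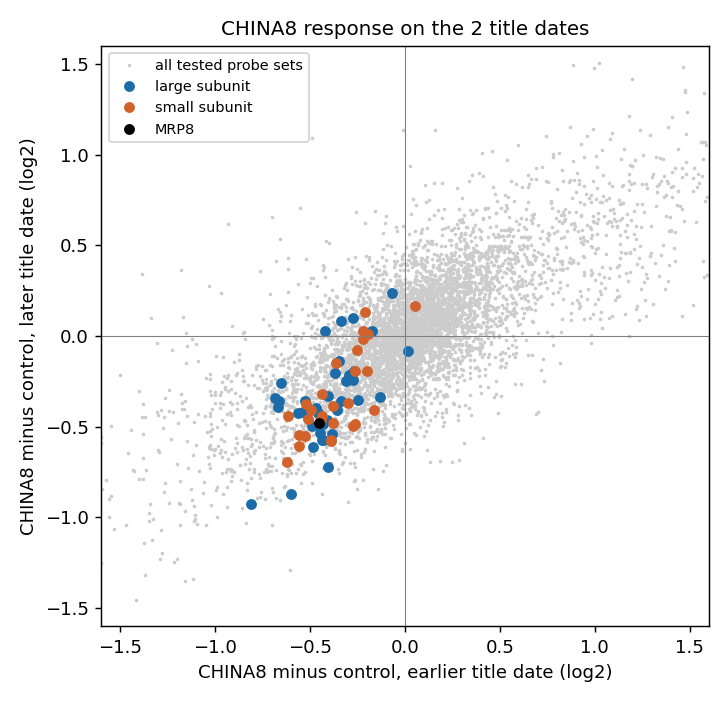
CHINA8 minus control in log2 units on the earlier (horizontal axis) and later title date (vertical axis), each from 2 arrays against 2, for all tested probe sets (grey) and the members by subunit. Of the members, 56 lie in the lower left quadrant, and 120 grey probe sets lie beyond the axis limits of 1.6.

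Among the CHINA8 contrasts, MRPL51 and MRPL6 had the smallest p. MRPL6, a large subunit protein of the universal family uL6, had log2 signals of 10.22, 10.17, 10.36 and 10.38 with CHINA8, against 10.91, 10.80, 10.69 and 10.78 in control. The groups did not overlap, and all CHINA8 arrays also lay below every array of the other extracts. MRPL6 fell by 0.51 (SE 0.07, limma adjusted p = 6.56e-05). MRPL51, of the mitochondria-specific family mL43, had 9.74, 9.88, 9.98 and 9.94 with CHINA8, against 10.46, 10.50, 10.41 and 10.28 in control, again with no overlap. It fell by 0.53 (SE 0.07, adjusted p = 6.55e-05). Over the family, 38 members had all CHINA8 arrays below all control arrays and 0 had all above, against 14.6% below and 15.6% above among all probe sets. With the 2 arrays of each other extract, all lay below control for 24 members with USA2 (19.6% of all probe sets), 30 with USA6 (14.4%), 25 with USA7 (23.9%), 33 with EUROPE11 (18.5%) and 19 with INDIA13 (19.5%). All lay above control for 1 member with USA2 (21.8%), 0 with USA6 (14.2%), 4 with USA7 (26.7%), 1 with EUROPE11 (23.7%) and 5 with INDIA13 (20.8%).

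**Figure D4:**
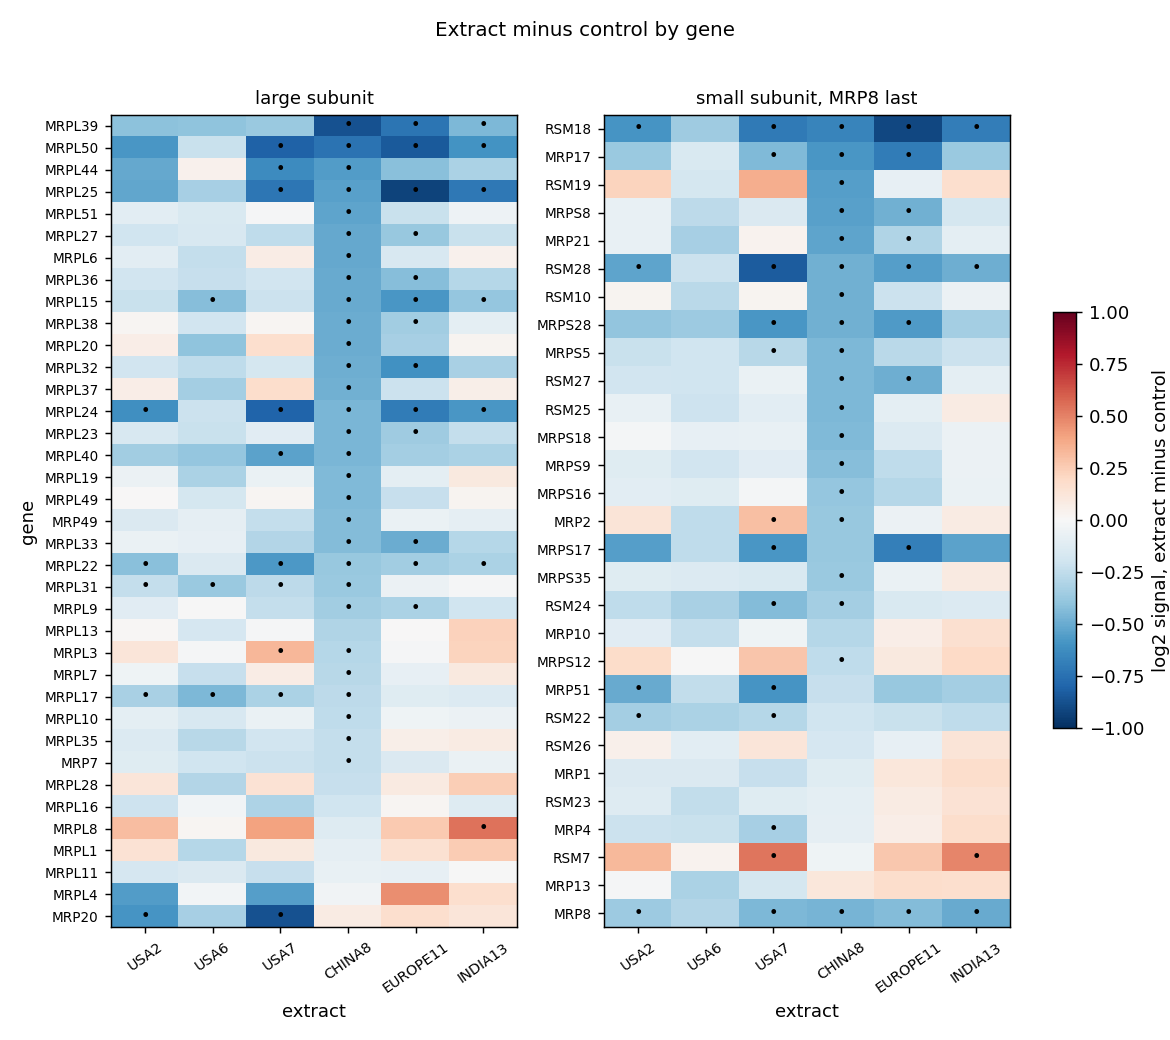
Log2 signal of each extract minus control for the 37 large subunit genes (left) and the 28 small subunit genes and MRP8 (right), ordered by the CHINA8 difference, with dots where the adjusted p was under 0.05. The CHINA8 column holds 48 dots, all in genes lower than control, and the 5 dots on genes higher than control are MRP2, MRPL3 and RSM7 with USA7 and RSM7 and MRPL8 with INDIA13.

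The study's pooled contrast set the 12 arrays of USA2, USA7, CHINA8, EUROPE11 and INDIA13 against the 4 control arrays and left out USA6. After the Bonferroni correction over all probe sets, 2 members fell, MRP8 and RSM18, and 0 rose, against 1.49% lower and 2.29% higher among all probe sets. With the Benjamini-Hochberg adjustment 25 fell, against 14.5%, and they were 15 large, 9 small and MRP8. The Bonferroni count was 5 without control replicate 1, 0 without control replicate 2, 3 or 4, and 1 without USA2 replicate 1, CHINA8 replicate 4, EUROPE11 replicate 2 or either INDIA13 array. It was 0 on the later-date arrays alone, 0 without the 4 arrays whose 18S values stood apart, and 1 (lower) with USA6 included, when 1.3% of all probe sets were lower and 2.08% higher. All 12 arrays lay below all 4 control arrays for 6 members (9.09%, against 5.01% of all probe sets), namely MRP8, RSM18, RSM28, MRPL22, MRPL39 and MRPL27.

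MRP8 had log2 signals of 12.43 and 12.35 with USA2, 12.43 and 12.50 with USA6, 12.39 and 12.23 with USA7, 12.25, 12.22, 12.29 and 12.40 with CHINA8, 12.40 and 12.24 with EUROPE11 and 12.33 and 12.16 with INDIA13, against 12.62, 12.76, 12.89 and 12.74 in control. Every extract array, USA6 included, lay below every control array. In the pooled contrast MRP8 fell by 0.45 (SE 0.06, Bonferroni adjusted p = 0.00895). It fell with each extract other than USA6, by 0.37 with USA2 and by 0.51 with INDIA13 at the ends of the range, and was 0.29 lower with USA6 (SE 0.09, Benjamini-Hochberg adjusted p = 0.0747). MRPL39, of the bacterial family bL33, and MRPL27, of the mitochondrial family mL41, also had all 14 extract arrays below control, and these 3 members are 4.55% of the family, against 4.08% of all probe sets.

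RSM18, a small subunit protein of the bacterial family bS18, had 10.60 and 10.78 with USA2, 10.84 and 11.02 with USA6, 10.73 and 10.41 with USA7, 10.33, 10.71, 10.79 and 10.68 with CHINA8, 10.31 and 10.43 with EUROPE11 and 10.60 and 10.59 with INDIA13, against 10.93, 11.35, 11.53 and 11.32 in control. Only USA6 replicate 2 lay within the control range, at whose lower end control replicate 1 stood apart. RSM18 fell by 0.70 in the pooled contrast (SE 0.11, Bonferroni adjusted p = 0.0315), and by 0.91 with EUROPE11 (SE 0.16, adjusted p = 0.00157) and 0.69 with INDIA13 (SE 0.16, adjusted p = 0.00552). RSM28, a mitochondria-specific small subunit protein (mS46), had 9.15 and 8.95 with USA7, against 9.62, 9.95, 10.12 and 9.85 in control. Both USA7 arrays lay below all other arrays, and RSM28 fell by 0.83 with USA7 (SE 0.12, adjusted p = 0.000163) and by 0.53 with USA2 (SE 0.12, adjusted p = 0.00841). The USA2 call was lost without either USA2 array (adjusted p = 0.0805 without replicate 1 and 0.0740 without replicate 2). RSM28 fell by 0.56 in the pooled contrast (SE 0.10), with a Benjamini-Hochberg adjusted p of 0.000377 and a Bonferroni adjusted p of 0.104.

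The other members with the smallest p in the pooled contrast were MRPL50 (bL9), MRPL25 (mL59), MRPL24 (bL28) and MRPL22 (uL22, which lines the exit tunnel of the ribosome) in the large subunit and MRPS28 (uS15) and MRP17 (bS6) in the small subunit. Their pooled differences lay between -0.72 (MRPL50, SE 0.14) and -0.40 (MRPL22, SE 0.08), and all passed the Benjamini-Hochberg adjustment, with adjusted p between 0.000917 and 0.00235. MRPL25 had 9.54 and 9.80 with EUROPE11, against 10.11, 10.76, 10.84 and 10.67 in control. It fell by 0.93 with EUROPE11 (SE 0.19, adjusted p = 0.00421), more than any other member with any extract, and the call was lost without EUROPE11 replicate 1 (difference -0.80, adjusted p = 0.0745). Control replicate 1 was the lowest control array for MRPL50, MRPL25, MRPL24, MRPS28 and MRP17. Without it their pooled differences were larger, at -0.85 for MRPL50 and -0.83 for MRPL25. Without the 4 arrays whose 18S values stood apart, MRPS28 and MRP17 no longer passed, at -0.33 (adjusted p = 0.0535) and -0.44 (adjusted p = 0.0582).

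With USA6, the 2 members of smallest p were MRPL31 and MRPL17, both mitochondria-specific large subunit proteins (mL60 and mL46). MRPL31 had 10.92 and 10.98 with USA6, against 11.30, 11.41, 11.29 and 11.28 in control, and MRPL17 had 9.41 and 9.44, against 9.78, 9.77, 10.06 and 9.89. Neither overlapped with control. MRPL31 fell by 0.37 (SE 0.08, adjusted p = 0.00853) and MRPL17 by 0.45 (SE 0.11, adjusted p = 0.0199). Both calls were lost without either USA6 array, with adjusted p between 0.0703 and 0.205. The third member called with USA6, named because the count was small, was MRPL15, a large subunit protein (-0.43).

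The extracts also differed from each other in the members. The F-test of limma over the 6 extract means, which uses no control mean, called 28 of 66 members, 15 large and 13 small, against 29.4% of all probe sets (37 members and 45.5% of all at an unadjusted p under 0.05). The count was 18 without USA2 replicate 1, USA2 replicate 2 or USA6 replicate 2, 17 without USA6 replicate 1 or INDIA13 replicate 1, and 16 without USA7 replicate 1. It was 39 on the later-date arrays alone. The smallest p belonged to MRP20, MRPL6 and MRP2. In the 15 contrasts between pairs of extracts, adjusted within each, most calls of members set CHINA8, with 4 arrays, against USA7, INDIA13 or USA2. USA7 minus CHINA8 called 24 members higher and 2 lower (36.4% and 3.03%, against 19% and 17.2% of all probe sets). CHINA8 minus INDIA13 called 24 lower and 0 higher (36.4% and 0%, against 7.1% and 5.59%). USA2 minus CHINA8 called 15 higher and 1 lower (22.7% and 1.52%, against 10.5% and 8.42%). In either direction, 36.2% of all probe sets were called for USA7 minus CHINA8 and 18.9% for USA2 minus CHINA8. In these 2 pairs the members thus differed from all probe sets mainly in direction. For CHINA8 minus INDIA13, 12.7% of all probe sets were called in either direction, against 36.4% of the members. USA7 minus EUROPE11 called 4 lower and 1 higher (7.5% and 5.8%), and USA6 minus USA7 called 3 lower and 2 higher (6.37% and 3.96%). USA6 minus CHINA8 called 1 lower and 2 higher (3.18% and 2.93%), and INDIA13 was higher than both USA6 (1.56% of all probe sets lower with USA6 and 0.868% higher) and USA7 (2.03% and 1.49%) in 3 members each. The other 7 pairs called 0 members and few probe sets at all. The shares of all probe sets, lower then higher, were 0.364% and 0.382% for CHINA8 minus EUROPE11, 1.08% and 0.469% for EUROPE11 minus INDIA13, 0.226% and 0.191% for USA6 minus EUROPE11, 0.191% and 0.208% for USA2 minus USA6, 0.174% and 0% for USA2 minus USA7, 0.0868% in both directions for USA2 minus EUROPE11, and 0.937% and 0.278% for USA2 minus INDIA13. The 85 calls over the 15 pairs became 52 without either USA2 array, 47 without USA7 replicate 1 and 56 without INDIA13 replicate 1.

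MRP20 had the smallest p of all members in the F-test. It is a large subunit protein of the universal family uL23, whose members sit at the mouth of the exit tunnel. It had 8.53 and 8.46 with USA2, 8.76 and 8.75 with USA6, 7.90 and 8.53 with USA7, 9.19, 8.98, 9.35 and 9.17 with CHINA8, 9.29 and 9.23 with EUROPE11 and 9.22 and 9.21 with INDIA13, against 9.27, 9.03, 8.93 and 9.11 in control. All arrays of the USA extracts lay below all other arrays, while those of CHINA8, EUROPE11 and INDIA13 overlapped with control or lay at its upper end. MRP20 fell by 0.59 with USA2 (SE 0.14, adjusted p = 0.0127) and by 0.87 with USA7 (SE 0.14, adjusted p = 0.000555), and differed among the extracts (F-test adjusted p = 0.00201). With USA6 it was 0.33 lower (SE 0.14, adjusted p = 0.201), and with CHINA8, EUROPE11 and INDIA13 it was 0.08, 0.17 and 0.12 higher, with adjusted p between 0.409 and 0.613.

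USA7 replicate 1 set the size of the MRP20 difference with USA7, which was -0.55 without it and -1.19 without replicate 2. The USA2 call was lost without either USA2 array (adjusted p = 0.0647 and 0.154). Between extracts, MRP20 was lower with USA7 than with CHINA8 by 0.96 (limma adjusted p = 0.000962), EUROPE11 by 1.04 (adjusted p = 0.00362) and INDIA13 by 1.00 (adjusted p = 0.00302), and lower with USA2 than with CHINA8 by 0.68 (adjusted p = 0.0121). Without USA7 replicate 1 the difference was -0.64 from CHINA8 and -0.68 from INDIA13, which still passed, and -0.72 from EUROPE11, which did not (adjusted p = 0.0521). Leaving out EUROPE11 replicate 1 also ended that call (adjusted p = 0.0566), and leaving out either USA2 array ended the call for USA2 minus CHINA8 (adjusted p = 0.131 and 0.0933).

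MRPL6 and MRP2 differed among the extracts in another way. MRPL6 had 10.97 and 10.78 with USA7, 10.88 and 10.79 with INDIA13, and 10.17 to 10.38 over the 4 CHINA8 arrays. It was higher by 0.59 with USA7 than with CHINA8 (adjusted p = 0.000865), and CHINA8 minus INDIA13 was -0.55 (adjusted p = 0.00156, 0.0506 without INDIA13 replicate 1). MRP2, a small subunit protein of the universal family uS14, had 11.69 and 11.66 with USA7, between 10.84 and 11.14 on the 4 CHINA8 arrays, and 11.31, 11.56, 11.31 and 11.31 in control. The USA7 arrays lay above and the CHINA8 arrays below all control arrays. MRP2 rose by 0.30 with USA7 (SE 0.11, adjusted p = 0.0344), fell by 0.38 with CHINA8 (SE 0.09, adjusted p = 0.00304) and was higher by 0.69 with USA7 than with CHINA8 (adjusted p = 0.000995). The rise with USA7 was lost without either USA7 array (adjusted p = 0.158 and 0.119), without control replicate 1, 3 or 4 (0.0597 to 0.0686), and without the 4 arrays whose 18S values stood apart (difference 0.24, adjusted p = 0.136).

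RSM19 (uS19) and MRPS12 (uS12, which sits at the decoding centre), neighbouring genes in the R64 annotation, had like patterns. RSM19 fell by 0.55 with CHINA8 (SE 0.14, adjusted p = 0.00662) and MRPS12 by 0.25 (SE 0.09, adjusted p = 0.0432), and both were higher with USA7 than with CHINA8, by 0.92 and 0.53 (adjusted p = 0.00211 and 0.00406). The call for RSM19 between USA7 and CHINA8 was lost without USA7 replicate 1 (0.80, adjusted p = 0.0504). RSM19 and MRPS12 were named after their values were seen. Both were among the 24 members called higher with USA7 than with CHINA8, so the pattern is not particular to this pair.

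**Figure D5:**
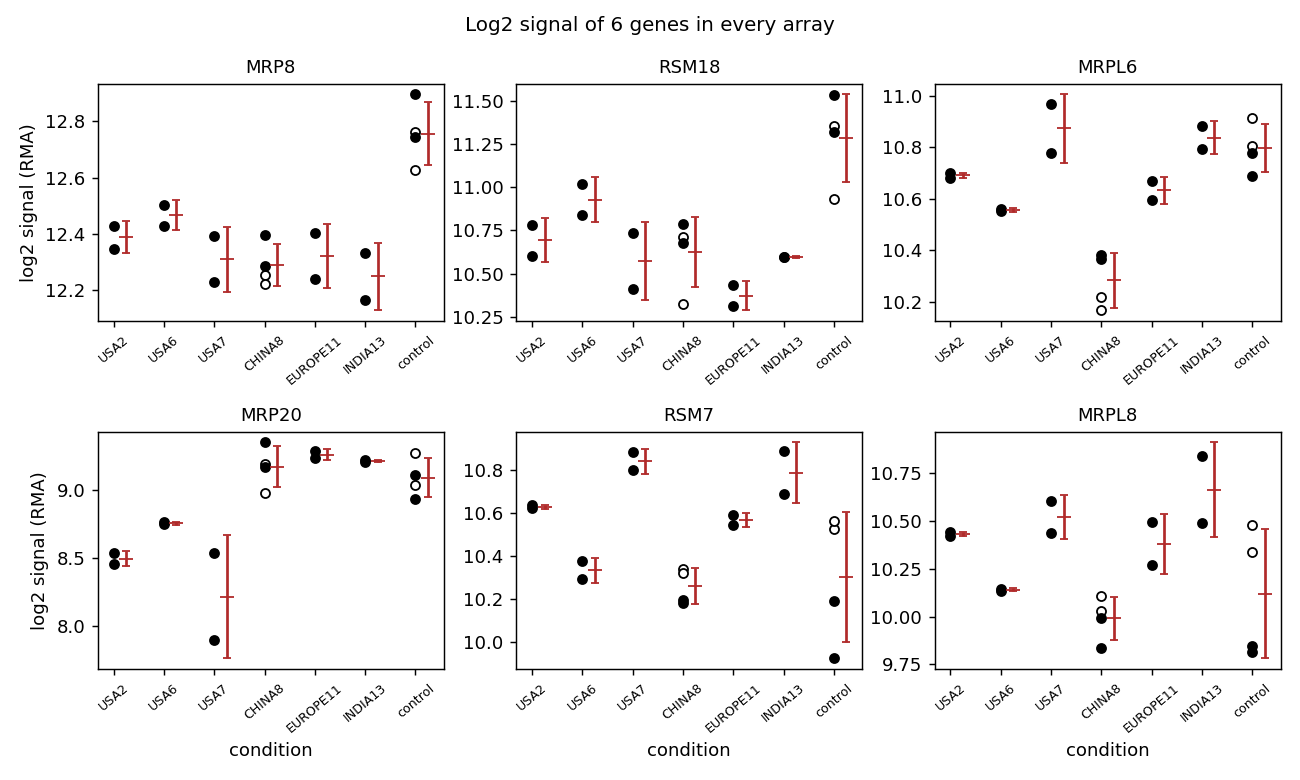
Log2 signal of MRP8, RSM18, MRPL6, MRP20, RSM7 and MRPL8 on every array (points, filled for the later and open for the earlier title date), with the mean and SD of each condition in red. Every extract array lay below control for MRP8, only the USA extracts did for MRP20, and the control arrays of the later date lay below those of the earlier date for RSM7 and MRPL8.

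Over all arrays 4 members rose, and for RSM7, MRPL8 and MRPL3 the control arrays of the later title date lay below those of the earlier one. RSM7, a small subunit protein of the universal family uS7 in the head of the subunit, had 10.88 and 10.80 with USA7 and 10.89 and 10.69 with INDIA13, against 10.53, 10.56, 9.93 and 10.19 in control. Both extracts lay above all control arrays, and the later-date controls (replicates 3 and 4) lay below the earlier ones. RSM7 rose by 0.54 with USA7 (SE 0.14, adjusted p = 0.00862) and by 0.49 with INDIA13 (SE 0.14, adjusted p = 0.0201). The rise was 0.78 and 0.73 against the later-date controls alone, and 0.30 (adjusted p = 0.0161) and 0.24 (adjusted p = 0.0480) without the 4 arrays whose 18S values stood apart, which include these controls. It was lost without USA7 replicate 1 (0.50, adjusted p = 0.0738) and without INDIA13 replicate 1 (0.39, adjusted p = 0.188).

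MRPL8, a large subunit protein of the bacterial family bL17, had 10.84 and 10.49 with INDIA13, against 10.48, 10.34, 9.85 and 9.82 in control. INDIA13 replicate 2 lay just above control replicate 1, and the later-date controls were again the lower ones. MRPL8 rose by 0.54 with INDIA13 (SE 0.17, adjusted p = 0.0269), by 0.83 against the later-date controls alone. Without the 4 arrays whose 18S values stood apart the difference was 0.26 (adjusted p = 0.144), without INDIA13 replicate 1 it was 0.37 (adjusted p = 0.277), and the call was also lost without control replicate 3 (0.45) or control replicate 4 (0.44). MRPL3, a mitochondria-specific large subunit protein (mL44), rose by 0.33 with USA7 (SE 0.11, adjusted p = 0.0305), and fell by 0.29 with CHINA8 (SE 0.09, adjusted p = 0.0239). Its rise was lost without control replicate 3 or 4 or either USA7 array (0.27 to 0.36, adjusted p between 0.0620 and 0.153) and was 0.18 without the 4 arrays whose 18S values stood apart (adjusted p = 0.174).

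Grouped by the family names in RefSeq, 27 members belong to families found in all ribosomes, 13 to families shared with bacteria and 24 to families of mitochondria alone, and MRP8 and RSM22 have no family name. In the pooled contrast, with the Benjamini-Hochberg adjustment, 8 of 27 universal, 8 of 13 bacterial and 7 of 24 mitochondria-specific members fell, with medians of -0.19, -0.38 and -0.18. With CHINA8 the counts were 19, 11 and 17, and the medians were -0.38, -0.49 and -0.37. With EUROPE11 they were 8, 8 and 5, with medians of -0.14, -0.42 and -0.09, and with INDIA13 1, 4 and 3, with medians of -0.06, -0.32 and 0.05. With USA7 they were 7, 5 and 6, with medians of -0.12, -0.21 and -0.16, and with USA2 2, 3 and 3, with medians of -0.11, -0.19 and -0.13. With USA6 they were 0, 0 and 3, with medians of -0.20, -0.22 and -0.23, so the bacterial families did not have the lowest median with every extract. Among all probe sets, 14.5% fell in the pooled contrast, 19.9% with CHINA8, 9.89% with EUROPE11 and 14.4% with INDIA13. With USA7 18.9% of all probe sets fell, with USA2 8.36% and with USA6 2.88%. The difference between these groups was not tested, and the contrasts share the control arrays.

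Mitochondrial ribosomal proteins with other gene names were counted from lists of their own. Of 5 small subunit proteins so named, 4 fell in the pooled contrast, with a list median of -0.36, and of 7 large subunit proteins 1 fell (IMG2), with a list median of -0.08, where 14.5% of all probe sets fell. With CHINA8 the counts were 4 of 5 and 4 of 7, against 19.9% of all probe sets. PET123, of the small subunit, had 9.80 and 9.85 with USA7 and 10.03, 10.14, 10.33 and 10.36 with CHINA8, against 10.52, 10.82, 10.89 and 10.86 in control. All extract arrays lay below control, and PET123 fell by 0.70 in the pooled contrast (SE 0.10, Benjamini-Hochberg adjusted p = 7.99e-05). SWS2, of the same family as the bacterial protein S13, fell by 0.55 (SE 0.10, adjusted p = 0.000494).

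Other genes of mitochondrial translation were counted in the same contrast, in which 14.5% of all probe sets fell. Of 9 translation factors 4 fell and 0 rose, among them AIM23, the initiation factor IF3 of mitochondria (-0.64, SE 0.14), and MEF1 and MEF2 of the elongation factor G family. Of 13 mitochondrial aminoacyl-tRNA synthetases 3 fell, led by MSF1 for phenylalanine (-0.56, SE 0.13). Of 15 translational activators of single mitochondrial mRNAs 5 fell, led by CBP6, which acts on cytochrome b mRNA (-0.85, SE 0.12, adjusted p = 7.99e-05). Of 4 genes of mitochondrial transcription 2 fell, among them the RNA polymerase RPO41 (-0.34, SE 0.08). Of 4 genes of membrane insertion and ribosome attachment 1 fell, the ribosome receptor MBA1 (-0.49, SE 0.12), while the list median was 0.10. With CHINA8, 1 of these 4 fell and 2 rose (19.9% and 19.7% of all probe sets), with a list median of 0.20.

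Of 8 genes of mitoribosome assembly and rRNA modification, 1 fell and 2 rose in the pooled contrast, where 14.5% of all probe sets fell and 15.4% rose. The GTPase gene MTG1 fell by 0.57 (SE 0.11), while the RNA helicase MRH4 rose by 0.34 (SE 0.07) and the 21S rRNA methyltransferase MRM1 by 0.25 (SE 0.08). MRH4 had 7.16 to 7.80 on the extract arrays, against 7.22, 7.32, 7.23 and 7.27 in control, and only USA6 replicate 1 lay below the highest control array. Of the 6 regulators HAP1 to HAP5 and PUF3, which bind promoters of respiratory genes or mRNAs of mitochondrial proteins, 0 passed the pooled test (adjusted p = 0.200 for HAP4). In the single-extract contrasts, 2 of the 6 fell with USA7 (18.9% of all probe sets), 2 with INDIA13 (14.4%) and 1 with USA2 (8.36%). With USA6, CHINA8 and EUROPE11 0 fell (2.88%, 19.9% and 9.89%). HAP4 had 9.94 and 10.59 with INDIA13, against 11.85, 11.40, 11.63 and 11.94 in control, and fell by 1.44 with INDIA13 (SE 0.31, adjusted p = 0.00399).

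No ribosomal protein gene of the cytoplasm fell in the pooled contrast. Of their 142 probe sets, 0 fell and 16 rose (14.5% and 15.4% of all probe sets), with a median of 0.05, and with CHINA8 0 fell and 15 rose (19.9% and 19.7% of all probe sets), also with a median of 0.05, so their share of higher calls was below that of all probe sets in both. On the CHINA8 arrays their mean deviation from control was 0.09, 0.12, 0.01 and 0.04, against -0.07, 0.04, 0.08 and -0.05 on the control arrays, so these ranges overlapped. RPL13A, of the large subunit, rose by 0.24 in the pooled contrast (SE 0.05). For RPL14B, also of the large subunit, 1 probe set rose by 0.43 (SE 0.09) and another was 0.05 higher (SE 0.04, adjusted p = 0.463). Most cytoplasmic ribosomal proteins are encoded by near-identical gene pairs, so the probe sets of such pairs cannot be told apart with certainty.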

How the data were processed

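RNA from each yeast culture was hybridized to 1 Affymetrix Yeast Genome 2.0 array, 18 arrays in all. The deposited values were log2 signals made by the authors with RMA (background correction, quantile normalization between arrays and summary of the probes of each probe set), 1 column per array. The sources used here give no version for the authors' RMA. Leaving out 137 control probe sets of the manufacturer kept 5763, tested without a filter, 47 reporter probe sets among them. Gene names came from the platform annotation (5498 probe sets with 1 symbol, 265 with none, 0 with several) and family names from RefSeq R64, in which all 66 members were found. No member probe set has a suffix for cross-hybridizing probes. The number of arrays limits the precision.

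Groups were taken from the sample labels. A model with 7 groups over all 18 arrays (limma 3.58.1 in R 4.3.3, lmFit and eBayes) gave each extract against control, the 15 pairs of extracts and the F-test among extracts, with Benjamini-Hochberg adjustment over all probe sets. The pooled contrast of 12 extract arrays with 4 control arrays left out USA6 and used the Bonferroni correction, after the study's methods. CHINA8 was compared between title dates by an interaction term. What the dates stand for is not stated. The threshold was an adjusted p of 0.05. The difference between the subunits was given as values, with no test. The fits were tested on simulated data.

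Named in the text are, in the pooled contrast, the 4 members of each subunit with the smallest p, the 2 called members of smallest p in each direction for each extract, the 3 of smallest p in the F-test, called members that opposed the majority, MRP8, and up to 4 genes of smallest p from each of the other lists. The members and the lists were chosen with earlier results of these data known. Alternatives covered array scaling, repeated quantile normalization, a filter that removed the lowest 25% of probe sets, the title date and the title number as blocks, the eBayes prior, the adjustment, and leaving out arrays. The 8 genes of the mitochondrial genome on the lists had no named probe set and were not analysed here, and sequences were not used here.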

Additional observations from a re-analysis of the deposited data

Results flagged for a closer look

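In control, MRPL31 was 11.41 on replicate 2, against 11.28 to 11.30 on the other 3 arrays, and MRP2 was 11.56 on replicate 2, against 11.31 on the other 3 arrays. Both lay further from the rest of the group than Dixon's 95% critical value allows. They were 2 of 42 groups of 4 arrays examined, and chance flags about 1 in 20.

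The CHINA8 response of RSM7 and MRPL8 pointed opposite ways on the title dates. RSM7 differed from control by -0.21 on the earlier date and by 0.13 on the later date, so the responses differed by -0.34 (interaction in limma, adjusted p = 0.478). MRPL8 differed from control by -0.34 on the earlier date and by 0.08 on the later date, so the responses differed by -0.42 (adjusted p = 0.386). Neither difference passed the adjusted test. The later-date arrays of both groups were those with the higher 18S end difference, and its part in these values was not tested.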

How the results depend on the processing

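Array scaling to equal medians, repeated quantile normalization, the filter on dim probe sets, the eBayes prior and updated symbols left each count of called members within 1.5 times its value. None of the 38 results for single named genes changed sign under any alternative, but the F-test values among them cannot. The update left all 66 member symbols unchanged, and leaving out an array outside a contrast leaves its difference unchanged. Many recalculations in the next count were thus fixed in advance, and their total does not measure robustness. Of 1026 recalculations for these genes, 35 lost their call, 30 of them on leaving out an array and 5 without the later-date arrays of control and CHINA8. With the title date as a block the counts became 20 for USA2 (16 lower, 4 higher), 14 for USA6 (all lower), 19 for INDIA13 (13 lower, 6 higher) and 161 for pairs of extracts. On later-date arrays alone they were 21 (17 lower, 4 higher), 13 (all lower), 23 (16 lower, 7 higher) and 189, and 0 for the pooled contrast. Without the later-date control and CHINA8 arrays, which leaves only earlier-date controls, they were 5 for USA6, 4 for INDIA13 and 0 for the pooled contrast. The title numbers were not used as pairs in the main model. Of 22 correlations between deviations of same-numbered arrays, 8 were over 0.1 (range -0.38 to 0.75). The highest, 0.75, was between control and CHINA8 on the earlier date, so these correlations do not settle whether same-numbered arrays are pairs. Blocked on date and number (replicate block), the counts were 22 for USA2, 20 for USA6, 27 for INDIA13, 45 in the F-test and 215 for pairs. The Bonferroni correction left 0 for USA2, USA6, EUROPE11, INDIA13 and the F-test, 1 for USA7 and 3 for CHINA8. The pooled contrast had 25 with the Benjamini-Hochberg adjustment and 1 with USA6 included, and CHINA8 had 12 on the earlier date alone. Leaving out each array in turn gave 0 to 18 for USA2, 0 to 7 for USA6, 7 to 27 for USA7, 43 to 49 for CHINA8, 3 to 27 for EUROPE11, 3 to 19 for INDIA13, 0 to 5 for the pooled contrast, 16 to 31 for the F-test, 47 to 110 for pairs and 0 for the interaction. The large minus small subunit difference of medians moved by more than the control SD of 0.04 on later-date arrays for CHINA8 (0.047), EUROPE11 (0.019), INDIA13 (-0.050) and the pooled contrast (0.039). With an array left out it lay between -0.05 and -0.00 for USA2, -0.01 and 0.03 for USA6, -0.094 and -0.015 for USA7, -0.054 and -0.0018 for CHINA8, -0.058 and 0.019 for EUROPE11, -0.046 and 0.014 for INDIA13 and -0.03 and 0.02 for the pooled contrast. The share of all probe sets was not counted for the blocks and the left-out arrays, so those counts cannot be set against it. The cause of these changes was not tested, and fewer arrays make each test weaker. With 2 arrays in most conditions, a member not called may still have changed.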
